A study of Mytilus galloprovincialis with 16 samples.

Results

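The female digestive gland of the mussel Mytilus galloprovincialis was compared between stage 3 and stage 2 of gonad development. The comparison used the female channel of the 4 arrays of stage 3 and of the 4 arrays of stage 2. These are 8 of the 32 glands that the labels give for the series. The channel was taken from the dye that the sample labels give to the female, and the signal of 1920 cDNA clones was read in it. The series holds 16 two-colour arrays over 4 stages, 4 per stage, each with RNA of 1 female and 1 male gland of the same stage. Replicates 2 and 4 of stage 4 may be 1 slide, as described below. The animals were wild mussels from the Bizerta Lagoon in Tunisia, none of them treated, and their age is not given. Each gland came from a single animal.

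Stage 3 females were sampled in February 2008 and stage 2 females in January 2007 by the labels. The study's figure captions call these stages ripe and development, while its results also call stage 3 developing. Its methods date stage 3 to February 2008 and stage 2 to January 2008, so that the year of stage 2 differs from its label. Each stage was sampled in 1 month and hybridised on arrays of its own, so that stage, month and array cannot be told apart. Dyes were balanced. Females carried Cy3 on replicates 1 and 3 of stage 3 and on replicates 1 and 2 of stage 2, and Cy5 on the other 2 arrays of each stage.

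The digestive gland is the organ in which mussels digest filtered food, take up nutrients and store reserves, and it handles metals and other contaminants. In mussels of temperate water, gametes ripen over winter while reserves are moved to the gonad, which spreads through the mantle and lies against the gland. The stage of each animal was read from histology of the mantle, and not from the gland. The array carries 3' cDNA probes from mussel tissue libraries, but the files used here do not pair its clones with genes, so that clones are given by identifier and no marker of the gland, the gonad or any other tissue could be checked. In whole tissue, fewer cells of a type and less RNA per cell cannot be told apart.

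Signals are log2 values after background correction and normalisation, averaged over the 2 spots of a clone. Changes are stage 3 minus stage 2. A change was called at an adjusted p under 0.05 in limma, in a fit of stage and dye with Benjamini-Hochberg adjustment over all clones. Such p-values measure the spread between single animals of 1 month each.

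The share of spots above the local background differed between arrays. Between 19.4% and 48.4% of female clone spots stood above background in stage 3, against 41.7% to 56.4% in stage 2. In stage 3 the share was 19.4% and 23.7% in Cy5-labelled females and 40.4% and 48.4% in Cy3-labelled females. The female channels of stage 2 correlated with each other at 0.928 to 0.969 over all clones, and those of stage 3 replicates 1, 2 and 3 at 0.907 to 0.915. Stage 3 replicate 4 stood apart. It correlated with these 3 at 0.750 to 0.838 and had the lowest share of spots above background, and results are therefore also given without it. Between the stages, correlations ran from 0.679 to 0.778. These are correlations across clones, which are not independent replicates.

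The stage 2 arrays also stood apart in how the sexes differed. Over all clones, the mean log2 ratio of female over male at stage 2 correlated at -0.59 with that of stage 1, -0.21 with that of stage 3 and -0.36 with that of stage 4, while the other pairs of stages correlated at 0.23 to 0.88. Every direction given for stage 2 follows the sexes in its labels, and whether the sexes were exchanged there was not tested. Results that rest on the stage 2 females are therefore also given with the stage 2 males in their place, a comparison added after the data were seen.

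In stage 3 females, 237 of 1920 clones changed (12.3%), 116 of them higher (6.04%) and 121 lower (6.30%). The fitted changes of the lower clones reached further. Their median log2 change was -1.18, against 0.92 for the higher clones and 0.05 over all clones. The changes of the lower clones ran from -5.58 to -0.37, and those of the higher clones from 0.44 to 3.31. A fitted change over 2-fold was found for 48 higher and 72 lower clones, one over 4-fold for 11 and 35, one over 8-fold for 1 and 26, and one over 16-fold for 12 lower clones. All 4 stage 3 values lay above all 4 stage 2 values in 109 of the 116 higher clones, where this held for 10.1% of all clones. They lay below in 118 of the 121 lower clones, where this held for 8.85% of all clones. The clones were called on these same values, so that such separation largely follows from the call. At an unadjusted p under 0.05, 502 clones passed in limma.

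**Figure D1:**
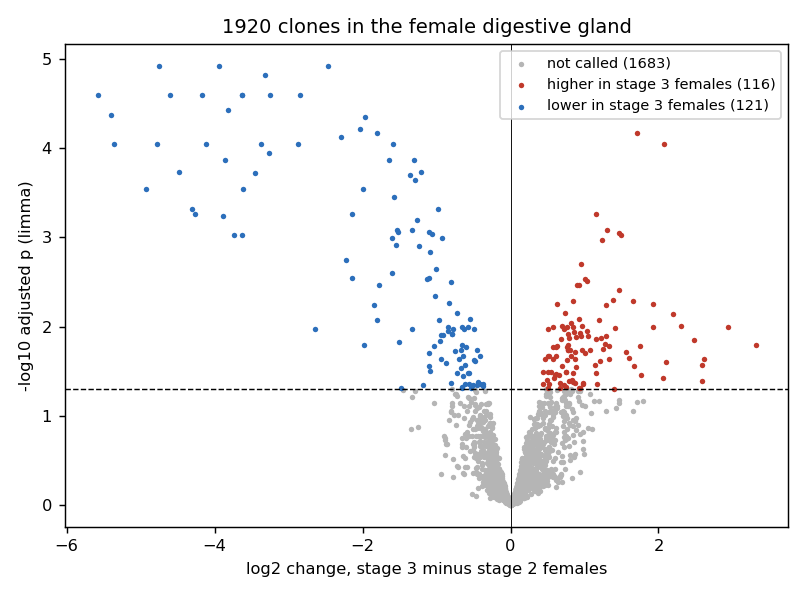
Each point is 1 of 1920 clones, with its log2 change between stage 3 and stage 2 females on the x axis and -log10 of the limma adjusted p on the y axis; the dashed line marks 0.05. The 121 lower clones reach -5.58, while the 116 higher clones end at 3.31.

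The count depended on the stage 2 sexes and on single arrays. With the stage 2 males in place of the stage 2 females 80 clones were called, 33 higher and 47 lower, and 75 of them were among the 237. Without stage 3 replicate 4, 287 clones were called, 169 higher and 118 lower, and 214 of them were among the 237. Without replicate 1, 2, 3 or 4 of stage 2, the count was 137, 160, 146 or 151, and the higher clones fell to 49, 68, 60 and 60, against 88, 92, 86 and 91 lower clones. Within 1 dye, where 2 females stood against 2, 185 clones were called among Cy3-labelled females (71 higher, 114 lower) and 57 among Cy5-labelled females (13 higher, 44 lower).

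The clone that fell furthest was Myt01-013H05. Its signal was 6.16, 7.09, 5.67 and 7.50 in the 4 stage 3 females, against 11.55, 12.24, 12.79 and 12.17 in the 4 stage 2 females. Every stage 3 value was thus more than 4 log2 units below every stage 2 value. The means were 6.60 ± 0.84 and 12.19 ± 0.50 (SD, n = 4 each), a log2 change of -5.58 (SE 0.27, limma adjusted p = 2.54e-05). The clone was above background in none of the stage 3 females and in all 4 stage 2 females. Set against the detection limit it was 37.4-fold lower. In such bounds the mean of the brighter stage is set against the detection limit of the dimmer one. On each array this limit is the dimmest signal of any clone above background, or the clone's own signal where that was higher. Brighter signals could also be not above background, so the bounds hold for this limit only and are not strict. With no background correction the log2 change of Myt01-013H05 was -4.10.

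Clone Myt01-013D02, next in size, was very similar. It had signals of 5.78, 6.76, 5.70 and 6.93 in stage 3 females, against 11.88, 11.91, 11.77 and 11.24 in stage 2 females. Again the groups lay far apart and only stage 2 was above background. The log2 change was -5.41 (SE 0.31, limma adjusted p = 4.23e-05), or 26.7-fold lower against the detection limit, and -3.80 with no background correction. Both calls held within either dye, without any single array and with the stage 2 males in place of the females (-4.54, limma adjusted p = 0.0152, for Myt01-013H05 and -3.99, limma adjusted p = 0.0179, for Myt01-013D02).

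The clone that rose furthest was Myt01-003D11. Its signal was 10.80, 9.93, 9.80 and 7.26 in stage 3 females, against 6.05, 6.01, 6.21 and 6.27 in stage 2 females. Replicates 1, 2 and 3 of stage 3 were thus far above all stage 2 females, whereas replicate 4 was nearer to them and not above background. The means were 9.45 ± 1.52 and 6.13 ± 0.13 (SD, n = 4 each), with a log2 change of 3.31 (SE 0.64, limma adjusted p = 0.0159). No stage 2 female was above background, and against the detection limit the clone was 7.17-fold higher. With no background correction its log2 change was 2.02.

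Clone Myt01-003B07 had signals of 10.40, 9.34, 9.24 and 7.50 in stage 3 females, against 6.08, 6.06, 6.26 and 6.30 in stage 2 females. It had the same order of arrays, with replicate 4 lowest in stage 3. Its log2 change was 2.94 (SE 0.51, limma adjusted p = 0.0102), or 5.72-fold higher against the detection limit, and 1.71 with no background correction. Without stage 3 replicate 4 the log2 changes were 4.04 (limma adjusted p = 0.000141) for Myt01-003D11 and 3.47 (limma adjusted p = 0.000421) for Myt01-003B07. Within Cy5-labelled females neither passed (2.35, limma adjusted p = 0.302, and 2.14, limma adjusted p = 0.216), and the call of Myt01-003D11 also ended without stage 2 replicate 1 (limma adjusted p = 0.0586) or 2 (limma adjusted p = 0.0519) and with the stage 2 males in place of the females (2.35, limma adjusted p = 0.104).

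**Figure D2:**
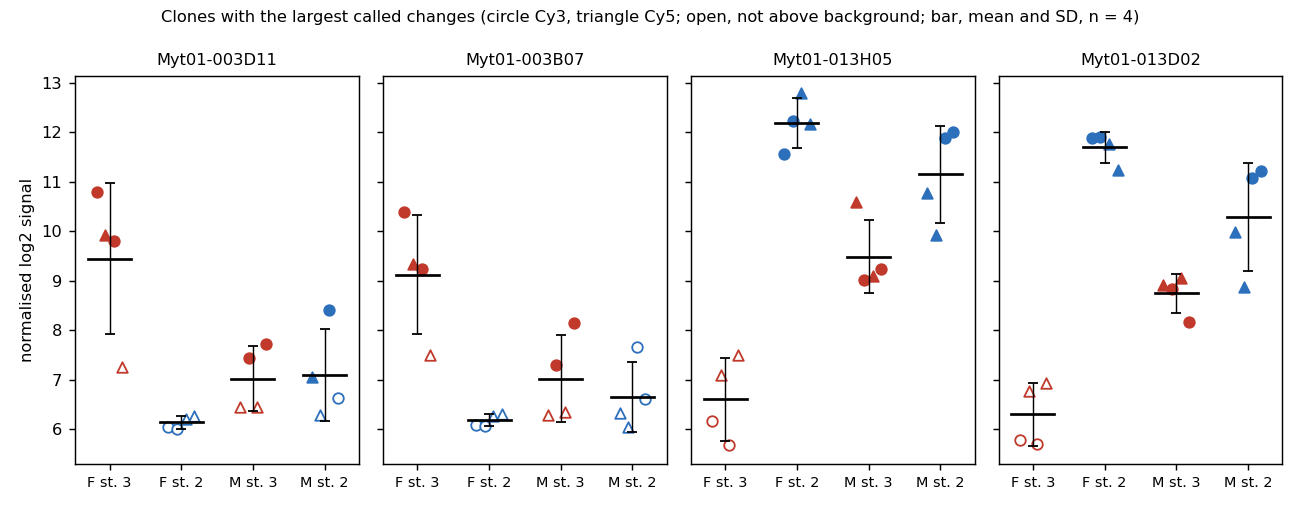
Normalised log2 signal of 4 clones in females (F) and males (M) of stage 3 and stage 2, with the mean and SD of 4 arrays; circles are Cy3, triangles Cy5, and open symbols are not above background. In Myt01-013H05 and Myt01-013D02 the stage 3 females lie at 7.50 or below and the stage 2 females at 11.24 or above, while in Myt01-003D11 and Myt01-003B07 stage 3 replicate 4 lies below the other stage 3 females.

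Most clones that were lower in stage 3 females were near or under the detection limit there. Of the 121, 0 were above background in all 4 stage 3 females. In stage 3 replicate 4 only 19.4% of all female clone spots were above background, which limits how many clones could be so in all 4. In all 4 stage 2 females 93 were above background, as were 599 of all 1920 clones. For 76 clones no stage 3 female was above background, which held for 1018 of all 1920 clones. Of the 76, 52 were above background in all 4 stage 2 females. One of the 76 was above background in neither stage. A bound on the fold, set as above, could be given for 57 clones. It had a median of 2.05-fold, exceeded 2-fold for 30 clones and 8-fold for 15, and reached 37.4-fold. The 45 clones that were above background in at least 1 stage 3 female had a median log2 change of -1.31. The lower share of spots above background in Cy5-labelled stage 3 females goes with these counts, and its part in them was not tested.

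Of the 116 higher clones, 43 were above background in all 4 stage 3 females, 35 in exactly 3, and 34 in all 8 females. The low share of stage 3 replicate 4 limits these counts too. For 35 clones no stage 2 female was above background, which held for 850 of all 1920 clones. In 2 higher clones no stage 3 female was above background, against 1018 of all clones. Bounds could be given for 33 clones, with a median of 1.63-fold and a maximum of 7.17-fold, and 10 of them exceeded 2-fold. The higher clones above background in at least 1 female of each stage had a median log2 change of 0.87. Within stage 3 the higher clones also had a larger spread between arrays. Their median SD was 0.35 in stage 3 and 0.17 in stage 2 (n = 4 arrays each), against 0.25 and 0.16 over all clones. These SDs belong to unlike levels. The median of the clone means was 8.12 in stage 3 and 6.84 in stage 2 for the higher clones, against 6.65 in each stage over all clones. Whether the level had a part in the spread was not tested. Replicate 4 was the lowest of the 4 stage 3 females in 62 of the 116 and in 645 of all 1920 clones, and without it the median SD in stage 3 was 0.25 in the higher clones and 0.20 over all clones. The lower clones had median SDs of 0.25 in stage 3 and 0.22 in stage 2.

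Fewer clones were called in the male glands on the same arrays. In the same fit, 17 clones were called in stage 3 males over stage 2 males (0.885%), 14 higher and 3 lower. The male and the female count both follow the stage 2 labels, and setting them side by side is no test between the sexes. That test was made on the ratio below. Of the 17 clones, 9 were also called in females, which is 52.9% of the 17 and 3.80% of the 237. All 9 had the same direction in both sexes (8 higher, 1 lower). Over the 121 clones lower in stage 3 females the median male change was -0.48, and 114 of them lay below 0 in males, as did 51.8% of all clones. Over the 116 higher clones the median male change was 0.30, and 98 lay above 0, as did 48.2% of all clones. The male and the female of an array were hybridised and normalised together, so that their values are not independent.

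Among the clones described above, Myt01-013H05 had a male signal of 9.49 ± 0.74 in stage 3 and 11.15 ± 0.99 in stage 2 (SD, n = 4 each), a change of -1.66 (limma adjusted p = 0.243). In stage 3 males it was 10.59, 9.02, 9.09 and 9.24, above background on all 4 arrays. The transcript was thus detected in every male and in no female of stage 3, while in stage 2 it was detected in both sexes. Myt01-013D02 was likewise above background in all 4 males of each stage, with a male change of -1.54 (limma adjusted p = 0.216). The male change was -0.08 for Myt01-003D11 (limma adjusted p = 0.955) and 0.36 for Myt01-003B07 (limma adjusted p = 0.666).

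**Figure D3:**
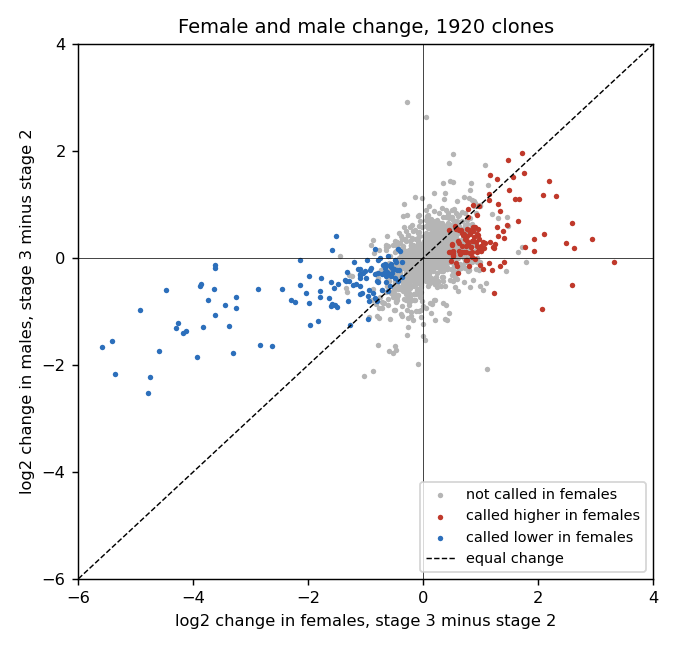
Log2 change between stage 3 and stage 2 in females (x axis) and in males (y axis) for 1920 clones; the dashed line marks equal change. Clones called lower in females mostly lie below 0 in males too but above the dashed line, with a male median of -0.48 beside a female median of -1.18.

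Whether females changed otherwise than males was tested on the ratio of female over male within each array. Only 1 clone passed (0.0521%), which was lower, while 401 clones had an unadjusted p under 0.05 in limma (20.9%), 215 with a higher and 186 with a lower ratio in stage 3. This count depended on single arrays and, with all arrays kept, on the processing. Without stage 3 replicate 4, 233 clones were called, 113 with a higher and 120 with a lower ratio. The count was 0 without replicate 1 or 3 of stage 3 or replicate 2, 3 or 4 of stage 2, with 296 to 372 clones at an unadjusted p under 0.05 in limma, and 1 without stage 3 replicate 2 or stage 2 replicate 1, that last clone being another one. It was 0 as well when the sign of the stage 2 ratios was turned, which treats the sexes of those arrays as exchanged, with 398 clones at an unadjusted p under 0.05. The ratio contains the female signal that chose the 237 clones, and its values in them are a description. The median ratio change was -0.74 in the 121 lower clones, with 119 below 0 (41.1% of all clones were), and 0.56 in the 116 higher clones, with 107 above 0 (58.9% of all clones were).

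The clone that passed was Myt01-010G03. Its log2 ratio of female over male was -1.43, -0.69, -1.42 and -1.20 on the stage 3 arrays, against 0.41, 0.67, 0.67 and 0.41 on the stage 2 arrays. Females were thus below males on every stage 3 array and above them on every stage 2 array by the labels. The ratio was also below 0 on every array of stage 1 (-1.69 to -0.63) and of stage 4 (-1.57 to -0.63), so that stage 2 alone lay above 0. The change was -0.64 and did not pass once the stage 2 ratios were turned (limma adjusted p = 0.161). The ratio changed by -1.73 (95% interval -2.12 to -1.33, limma adjusted p = 0.0304). Its female signal was 6.34, 6.72, 6.59 and 7.04 in stage 3, against 7.71, 8.06, 8.59 and 8.66 in stage 2, a change of -1.58 (SE 0.14, limma adjusted p = 0.000354), and 1 stage 3 female and all 4 stage 2 females were above background. The male change was 0.15 (limma adjusted p = 0.855). The call on the ratio ended without any single array other than stage 3 replicates 2 and 4, with limma adjusted p up to 0.186 among these.

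No ratio passed in the higher direction. The smallest p belonged to Myt01-003G05, with a ratio change of 1.20 (95% interval 0.81 to 1.59, limma adjusted p = 0.0570), and to Myt01-001H02, with 1.07 (0.71 to 1.42, limma adjusted p = 0.0570). In both the male change (-0.85 and -1.11) was larger than the female change (0.35 and -0.04), and no male change passed. Myt01-003G05 was above background in no stage 2 female and no stage 3 male, and Myt01-001H02 in no stage 3 female or male. Both ratios thus rest partly on signals not above background, and in Myt01-001H02 those of the 2 stages overlapped. These ratio changes became -0.81 and -0.65 (limma adjusted p = 0.161 each) once the stage 2 ratios were turned, so that their direction depends on the stage 2 labels. For the 4 clones with the largest female changes the ratio change was -3.92 (-5.56 to -2.27) in Myt01-013H05, -3.86 (-5.66 to -2.07) in Myt01-013D02, 3.39 (1.49 to 5.30) in Myt01-003D11 and 2.58 (0.90 to 4.26) in Myt01-003B07. Their limma adjusted p of 0.0615, 0.0685, 0.0771 and 0.104 missed the threshold. Each interval leaves out 0, but the clones were chosen for the female change, which is part of the ratio. The intervals are thus partly set by the choice. In Myt01-003D11 and Myt01-003B07 the ratio of stage 3 replicate 4 (-0.46 and -0.64) lay within the range of the stage 2 arrays.

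The higher and the lower clones were spread unevenly over the plates of the clone collection. The clone identifiers carry a plate number, with 96 clones on each of 20 plates; the sources used here do not say what the plates hold. Plates 1, 2 and 3 hold 288 clones, 15% of all. They gave 23, 31 and 14 higher clones, together 68 or 58.6% of the 116, and 0 of the 121 lower clones. Plates 4 to 20 gave 48 higher and 121 lower clones, and plates 12 to 15 alone 2 higher and 53 lower clones. Plate 20 had no called clone.

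The shift of plates 1 to 3 was broad. Of the 288 clones, 243 lay above 0, against 58.0% of all clones, and their median change was 0.39, against 0.02 on plates 4 to 20. The median signal of the 288 clones was 7.27, 7.09, 7.15 and 6.89 in stage 3 females, against 6.65, 6.67, 6.56 and 6.49 in stage 2 females. The 2 groups of females did not overlap. In males the same medians were 6.77 to 6.96 in stage 3 and 6.70 to 6.94 in stage 2, and the median male change was 0.04. Each plate was spotted in 4 of 16 blocks of the array. Plate 4, which shares its spotting rows with plates 1 to 3, gave 6 higher and 2 lower clones and had a median change of 0.145. Plates 5 to 8 share 2 of these 4 rows, and their median changes ran from -0.087 to 0.099. Whether the position on the slide had a part in the shift was not tested. Without stage 3 replicate 4, plates 1 to 3 gave 93 of 169 higher and 0 of 118 lower clones. Without replicate 1, 2, 3 or 4 of stage 2 they gave 28 of 49, 38 of 68, 36 of 60 and 33 of 60 higher clones, and 0 lower clones each time. They gave 39 of 71 higher and 2 of 114 lower clones within Cy3-labelled females, and 6 of 13 and 1 of 44 within Cy5-labelled females. Where the stage 2 males replaced the females, they gave 18 of 33 higher and 0 of 47 lower clones.

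**Figure D4:**
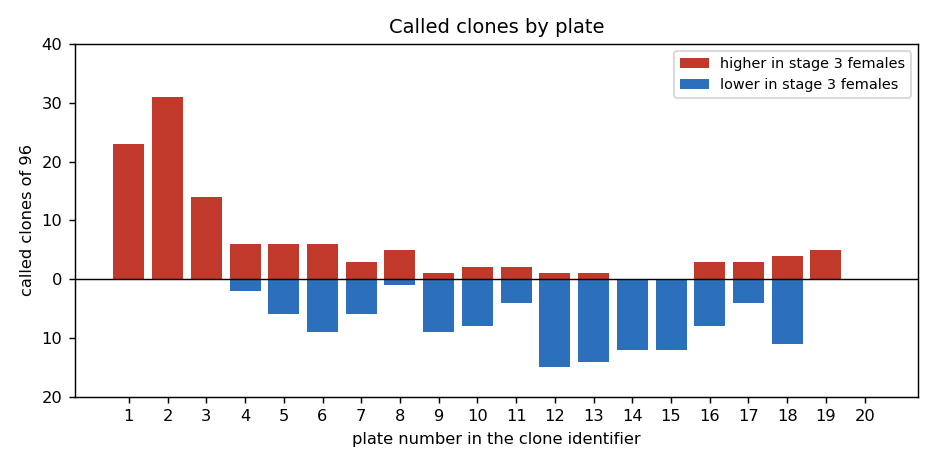
Number of clones called higher (upward bars) and lower (downward bars) in stage 3 females on each plate of 96 clones, by the plate number in the clone identifier. Plates 1 to 3 hold 68 of the 116 higher and 0 of the 121 lower clones.

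The lower clones also overlapped with a list chosen on other arrays. At stage 1, sampled in November 2007, 72 clones were higher in males than in females (limma on the ratios of the 4 stage 1 arrays, adjusted p under 0.05). None of the arrays of stages 2 and 3 took part in that choice. In stage 3 females over stage 2 females, 65 of the 72 clones lay below 0 (42.0% of all clones did) and the median change was -1.60. Of the 72, 53 were called lower (73.6%, against 6.30% of all clones) and 0 higher. They include 23 of the 26 clones that were over 8-fold lower. The median female signal of the 72 clones was 6.54 to 7.27 on the stage 3 arrays, against 9.29 to 9.53 on the stage 2 arrays, with no overlap. In stage 2 females 71 of the 72 were above background on all 4 arrays, as were 599 of all 1920 clones. In stage 3 females 35 were above background on none, which held for 1018 of all clones. In males their median change was -0.48, with 58 below 0 (51.8% of all clones were) and 1 called lower (3 of all clones were). The median was -1.64 without stage 3 replicate 4, where 53 were again called lower. The same 72 clones were above 0 in the ratio of female over male in 71 cases at stage 2, against 0 at stage 1, 14 at stage 3 and 10 at stage 4. The 0 at stage 1 follows from how the list was chosen. With the stage 2 males in place of the females, 58 of the 72 lay below 0 and the median was -1.002. There 31 of the 72 were called lower, against 47 of all clones. Of the 13 clones lower in males at stage 1, 12 lay above 0 in stage 3 females over stage 2 females (58.0% of all clones did). Their median was 0.44, and 1 was called higher (6.04% of all clones were).

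The called clones were followed over all 4 stages. Since they were chosen on stages 2 and 3, only stages 1 and 4 add to the comparison, and none of this was tested. The median female signal of the 116 higher clones was 7.27 to 7.35 on the arrays of stage 1 and 6.85 to 6.98 on those of stage 2, then 7.72 to 8.19 on those of stage 3 and 7.43 to 8.09 on those of stage 4. By this median, stage 1 lay between stages 2 and 3 on every array. By the stage means of single clones it did so for 74 of the 116, while it lay above stage 3 for 21 and below stage 2 for 21. At stage 4, sampled in March 2008, replicates 2 and 4 share the deviations of single spots (r = 0.592), as 1 slide would. They gave medians of 8.09 and 8.05, nearer to stage 3 than the 7.51 and 7.43 of replicates 1 and 3, and were averaged and counted once in the stage means. By these means, stage 4 lay between stages 2 and 3 for 92 of the 116 clones, above stage 3 for 22 and below stage 2 for 2. With replicates 1 and 3 alone it was 93, 17 and 6.

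The 121 lower clones ran the opposite way. Their median female signal was 7.23 to 7.34 on the arrays of stage 1 and 7.91 to 8.30 on those of stage 2, then 6.36 to 6.64 on those of stage 3 and 6.39 to 7.005 on those of stage 4. The 4 stage 2 females had the highest medians of this list, above the females of every other stage. This peak rests on the labels of stage 2, the only stage at which the list was higher in females. The ratio of female over male was above 0 for 116 of the 121 clones at stage 2, but below 0 for 96 at stage 1, 107 at stage 3 and 105 at stage 4. The list was chosen on the female signals of stages 2 and 3, which are part of these ratios. Their signs at these 2 stages and the stage 2 peak were thus partly set by the choice. Of the 26 clones over 8-fold lower, all 26 were above 0 at stage 2 and below 0 at each other stage. In males the list medians were 7.70 to 8.08 for stage 1, 7.16 to 7.86 for stage 2, 6.96 to 7.14 for stage 3 and 7.04 to 7.22 for stage 4. By stage means, stage 1 females lay between stages 3 and 2 for 96 of the 121 clones, and stage 4 females lay between them for 82 and below stage 3 for 36, with replicates 2 and 4 counted once. These replicates gave list medians of 6.39 and 6.46, and replicates 1 and 3 of 6.75 and 7.005. Between the 8 arrays of stages 2 and 3 the deviations of single spots correlated at -0.03 to 0.06.

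**Figure D5:**
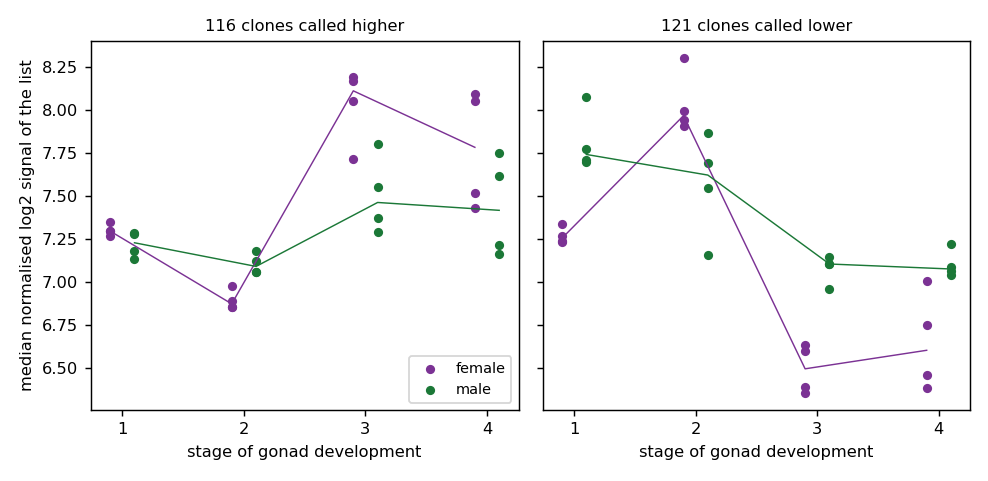
Median normalised log2 signal of the 116 clones called higher and the 121 clones called lower, on each array of stages 1 to 4, for females and males; lines join the medians of the arrays. Female signals of the lower clones are at 7.91 to 8.30 at stage 2 and at 6.36 to 6.64 at stage 3, whereas male signals span 7.16 to 7.86 and 6.96 to 7.14.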

How the data were processed

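The authors deposited GenePix scanner output with linear foreground and background intensity values per spot and channel. The authors' deposited value table holds a log2 ratio per spot, whose sign matched female over male; it served as an alternative only. Starting from mean foreground and median background, normexp correction (offset 50), loess within arrays (608 blank and 112 alignment spots took no part) and Aquantile normalisation over all 16 arrays were run in limma 3.58.1 under R 4.3.3. The female signal was split from each array by dye, and both spots were averaged. Stage and dye were fitted to the 8 females with lmFit and eBayes (5 residual degrees of freedom), with two-sided tests and Benjamini-Hochberg adjustment over 1920 clones at 0.05. Males and the female over male ratio were fitted alike. A clone was above background where the foreground of both spots was over the local background median plus 2 of its SDs. No clone was left out. The number of arrays limits the precision. The fit was tested on simulated data.

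Named clones are at most 2 per direction with the largest change among called clones whose groups did not overlap and which were above background on at least 3 of 4 arrays of a stage; where a direction had no call, the 2 smallest p-values. The comparison, clones and lists were chosen with earlier results of these data known. Stage 1 list, plates and background levels are described without a test. Clone identities are not reported here.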

Additional observations from a re-analysis of the deposited data

Results flagged for a closer look

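In 2 of 42 groups of 4 values examined for the clones named above, 1 array lay far from the other 3, where chance gives about 2.1. The male signal of Myt01-013H05 in stage 3 was 10.59 in replicate 1, against 9.02 to 9.24 in the other 3 males. The male signal of Myt01-001H02 in stage 3 was 8.30 in replicate 2, against 6.58 to 6.78 in the others, and was not above background in any stage 3 male.

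The female change differed from the male change in Myt01-010G03, where the ratio of female over male changed by -1.73 (limma adjusted p = 0.0304) between stage 3 and stage 2, with a female change of -1.58 and a male change of 0.15. With the stage 2 ratios turned the ratio change was -0.64 (limma adjusted p = 0.161).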

How the results depend on the processing

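With the stage 2 ratios turned (added after seeing the data), the ratio changes of Myt01-003G05 and Myt01-001H02 became -0.81 and -0.65. No other alternative that was run turned the sign of a named clone or of the stage 1 list. The calls of Myt01-013H05 and Myt01-013D02 held in all 26 alternatives, with limma adjusted p of at most 0.0152 and 0.0179. Those of Myt01-003B07 and Myt01-003D11 held in 23 and 20 of 25.

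The 237 clones became 57 within Cy5-labelled females, 89 at a B statistic over 0 (22 higher, 67 lower), 356 at an adjusted p under 0.1 and 384 with spots kept apart. Leaving out 1 array gave 137 to 287, the lowest without stage 2 replicate 1 and the highest without stage 3 replicate 4, and 136 to 214 of these were among the 237. Apart from the replicate block and the alternatives added later, all others gave 185 to 281. Replicate numbers do not pair animals: the deviations of same-numbered females correlated at -0.01 to 0.16. With the replicate block, 102 clones were called in females (34 higher, 68 lower) and 0 in the ratio, where 334 had an unadjusted p under 0.05 in limma. Chosen after seeing the data, stage 2 males in place of females, as if the sexes of those arrays were exchanged, gave 80 clones (33 higher, 47 lower), 75 of them among the 237, and a median of -1.002 for the 72 clones of the stage 1 list. Without plates 1 to 3, likewise added, 154 clones were called (41 higher, 113 lower).

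The ratio comparison, with 1 clone, was unstable. It gave 0 with the stage 2 ratios turned and with no background correction (398 and 406 at an unadjusted p under 0.05 in limma), 2 with print-tip loess, 17 with the deposited ratios (added after seeing the data), 19 without the dye term, 22 at a B statistic over 0, 49 with scaled ratios, 70 with all 4 stages in 1 fit, 73 without dim clones, 90 with plain subtraction, 102 with median centring, 105 with an offset of 16, 140 at an adjusted p under 0.1, 182 with array weights and 272 with spots kept apart. Leaving out 1 array gave 0 to 233.

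The median of the stage 1 list, -1.60, was -0.90 with no background correction, -2.05 with an offset of 16 and -2.79 with plain subtraction. Leaving out 1 array gave -1.71 to -1.53. The cause was not tested. Only 19.4% to 48.4% of female spots in stage 3 were above background, which limits what can be measured there.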
